A study of Mus musculus with 12 samples.

Results

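Complement is a cascade of secreted proteins that tags debris, microbes and synapses for removal. C1q, assembled from the products of C1qa, C1qb and C1qc, recognises a target and starts the classical pathway, which continues through C4 and C3. Cleaved fragments act on receptors such as the C3a receptor, while inhibitors such as Serping1 and Clu limit the cascade. In the brain, microglia, the resident macrophages, are the main source of C1q, and astrocytes are a source of C4, Clu and Serping1. The genes described are C1qa, C1qb and C1qc, the later components C3 and C4b, the receptors C3ar1 and Itgb2, and the regulators Serping1 and Clu. They were chosen by name, and the array annotation assigned 14 of 22690 probe sets to them. Of the 14, 5 were for C1q genes and 9 for other genes, and 8 of the 9 listed genes had at least 1. No probe set was assigned to C3 in the annotation used, so C3 was not analysed here.

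RNA from whole cerebellum of 12 BALB/c mice was hybridised to Affymetrix expression arrays, 1 array per animal. The groups were Npc1-/- at postnatal day 49 (P49), Npc1-/- at P21, Npc1+/+ at P49 and Npc1+/+ at P21, with 3 individual animals in each. Npc1 encodes a late endosomal and lysosomal membrane protein needed for cholesterol export, and Npc1-/- mice are a model of Niemann-Pick disease type C. They lack Npc1 in all cells, so the cell type in which its loss acts was not separated. Every animal was on standard chow with no drug treatment named in the labels. Values are log2(intensity + 16) after quantile normalization, and each value is relative to a probe set's own levels, so levels were not compared between genes. A gene was tested when its brightest probe set averaged at least 9.93 on this scale (intensity 959), which held for 7835 of 12393 genes and for C1qa, C1qb, C1qc, Serping1 and Clu. C3ar1 and Itgb2 were under that level and C4b shares its probe set with C4a, so their values come from a second fit of all 22626 probe sets that are not controls. A difference was called when limma's Benjamini-Hochberg adjusted p was under 0.05.

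The Npc1 probe set read 8.25 to 10.53 on the 6 Npc1-/- arrays, against 11.06 to 11.75 on the 6 Npc1+/+ arrays. The groups did not overlap, although the difference was not called at P49 (-1.43 ± 0.37, SE, limma adjusted p = 0.0591) or at P21 (-1.95 ± 0.37, adjusted p = 0.101). On 3 P21 arrays of animals labelled female (Npc1-/- replicates 2 and 3 and Npc1+/+ replicate 2), Xist read 9.28 to 13.36, against 15.61 to 15.86 on the other 9 arrays. Those 9 include P49 Npc1-/- replicate 1, the only animal labelled male. Eif2s3y, a gene of the Y chromosome, read 12.72 on P21 Npc1+/+ replicate 2. On P21 Npc1-/- replicates 2 and 3 it read 9.25 and 12.67, against 4.35 to 8.91 on those 9 arrays. The cause of these readings was not tested. Results at P21 are therefore also given without those 3 arrays, which leaves 1 Npc1-/- array and 2 Npc1+/+ arrays at that age. The lone array is then assumed to vary like the other groups. Each array holds whole tissue, in which fewer cells of a type and less RNA per cell cannot be told apart.

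The promoters of C1qb, C1qc and C3ar1 are shown because these are genes with higher signal in Npc1-/- cerebellum whose start regions were in the promoter table. The sequences are the 250 bases before the annotated gene start (RefSeq, GRCm38.p6), read 5′ to 3′ on the gene's strand, which is the minus strand in each case. The positions are chr4:136886201-136886450 for C1qb, chr4:136892915-136893164 for C1qc and chr6:122856158-122856407 for C3ar1. Capitals mark matches to GAGGAA (bound by PU.1 and other ETS factors) or to TTTCNNTTT (bound by interferon regulatory factors) on either strand.
C1qb: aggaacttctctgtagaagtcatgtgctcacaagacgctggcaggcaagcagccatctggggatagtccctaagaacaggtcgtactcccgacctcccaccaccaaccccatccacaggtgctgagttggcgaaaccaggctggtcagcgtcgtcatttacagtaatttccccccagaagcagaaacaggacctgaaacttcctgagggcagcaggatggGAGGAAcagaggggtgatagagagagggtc
C1qc: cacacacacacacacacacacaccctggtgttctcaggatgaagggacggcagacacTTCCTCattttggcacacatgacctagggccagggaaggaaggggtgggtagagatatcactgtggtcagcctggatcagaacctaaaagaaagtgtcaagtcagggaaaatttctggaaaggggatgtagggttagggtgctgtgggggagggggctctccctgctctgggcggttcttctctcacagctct
C3ar1: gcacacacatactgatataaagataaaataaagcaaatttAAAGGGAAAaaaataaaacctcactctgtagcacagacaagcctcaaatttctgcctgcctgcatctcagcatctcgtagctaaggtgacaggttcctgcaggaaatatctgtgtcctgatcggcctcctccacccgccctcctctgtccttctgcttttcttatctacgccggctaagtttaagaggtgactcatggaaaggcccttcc
GAGGAA lay 30 to 25 bases before the start of C1qb on the gene's strand and 193 to 188 bases before the start of C1qc on the other strand. TTTCNNTTT lay 210 to 202 bases before the start of C3ar1 on the other strand. Of 32851 mouse promoters of this length, 23.3% held GAGGAA and 9.37% held TTTCNNTTT. The third pattern searched, TTCNNNGAA (bound by STAT factors), was in 7.02% of promoters and had no match in these windows.

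The C1q genes stood far higher in Npc1-/- than in Npc1+/+ cerebellum at P49, by 10.5-fold for C1qa, 8.37-fold for C1qb and 11.5-fold for C1qc. At P21 the same genes were 2.11-fold, 2.41-fold and 2.63-fold higher, and of these C1qb and C1qc rose by the test. C4a and C4b, Itgb2 and C3ar1 also rose at P49, whereas Serping1 and Clu had smaller differences that were not called. In Npc1+/+ cerebellum no complement gene tested was called between P49 and P21.

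C1qa encodes the A chain of C1q. Its log2 value was 14.74, 15.12 and 15.04 on the Npc1-/- arrays at P49, against 11.33, 11.41 and 11.99 on the Npc1+/+ arrays. All Npc1-/- arrays lay above all Npc1+/+ arrays. The group means were 14.97 ± 0.20 and 11.58 ± 0.36 (SD, n = 3 each), and the difference was 3.39 ± 0.18 (SE, 95% interval 2.99 to 3.79, limma adjusted p = 7.35e-08). At P21 the values were 12.77, 12.94 and 12.55 on the Npc1-/- arrays, against 11.54, 11.53 and 11.96 on the Npc1+/+ arrays. The groups were again apart, by less than at P49. The P21 difference of 1.08 ± 0.18 narrowly missed the threshold (limma adjusted p = 0.0524).

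C1qb encodes the B chain. At P49 its brightest probe set read 13.82, 14.05 and 14.14 on the Npc1-/- arrays, against 10.78, 11.13 and 10.90 on the Npc1+/+ arrays. The groups were well apart and the Npc1-/- arrays lay close together. The difference was 3.07 ± 0.16 (SE, 95% interval 2.72 to 3.41, limma adjusted p = 5.82e-08). At P21 the probe set read 12.08, 12.40 and 12.07 on the Npc1-/- arrays, against 10.63, 11.00 and 11.11 on the Npc1+/+ arrays. These groups did not overlap either, and the difference of 1.27 ± 0.16 was called (limma adjusted p = 0.00492).

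C1qb had a further pair of probe sets, both of a design that may match other sequences. The probe set 1437726_x_at differed at P49 by 2.81 ± 0.30 (SE, limma fit of all probe sets, adjusted p = 0.000161). The probe set 1434366_x_at differed by 1.58 ± 0.19 (adjusted p = 0.000465), a smaller size than the other C1qb probe sets showed. At P21 the differences were 0.89 ± 0.30 (adjusted p = 0.525) and 1.00 ± 0.19 (adjusted p = 0.13), and neither was called. The 3 probe sets thus had the same direction and differed in size.

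C1qc encodes the C chain. At P49 it read 13.71, 14.01 and 14.19 on the Npc1-/- arrays, against 10.73, 10.31 and 10.31 on the Npc1+/+ arrays. No value of one group came near the other. The difference was 3.52 ± 0.18 (SE, 95% interval 3.14 to 3.90, limma adjusted p = 5.82e-08). At P21 it read 11.89, 11.77 and 12.03 on the Npc1-/- arrays, against 10.57, 10.21 and 10.72 on the Npc1+/+ arrays. The groups were apart there as well, and the difference of 1.40 ± 0.18 was called (limma adjusted p = 0.00492).

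The P21 calls of C1qb and C1qc rested on the pooled spread and on the array set. Without the 3 arrays of doubtful sex label the differences kept a size of 1.21 for C1qb (limma adjusted p = 0.0997) and 1.25 for C1qc (adjusted p = 0.107), and neither was called. With only the 6 P21 arrays in the fit, both had an adjusted p of 0.163. The C1qb call was also lost when its 3 probe sets were averaged (adjusted p = 0.0929), and C1qa was called on the values as deposited (adjusted p = 0.043) or without P49 Npc1+/+ replicate 3 (adjusted p = 0.0172).

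**Figure D1:**
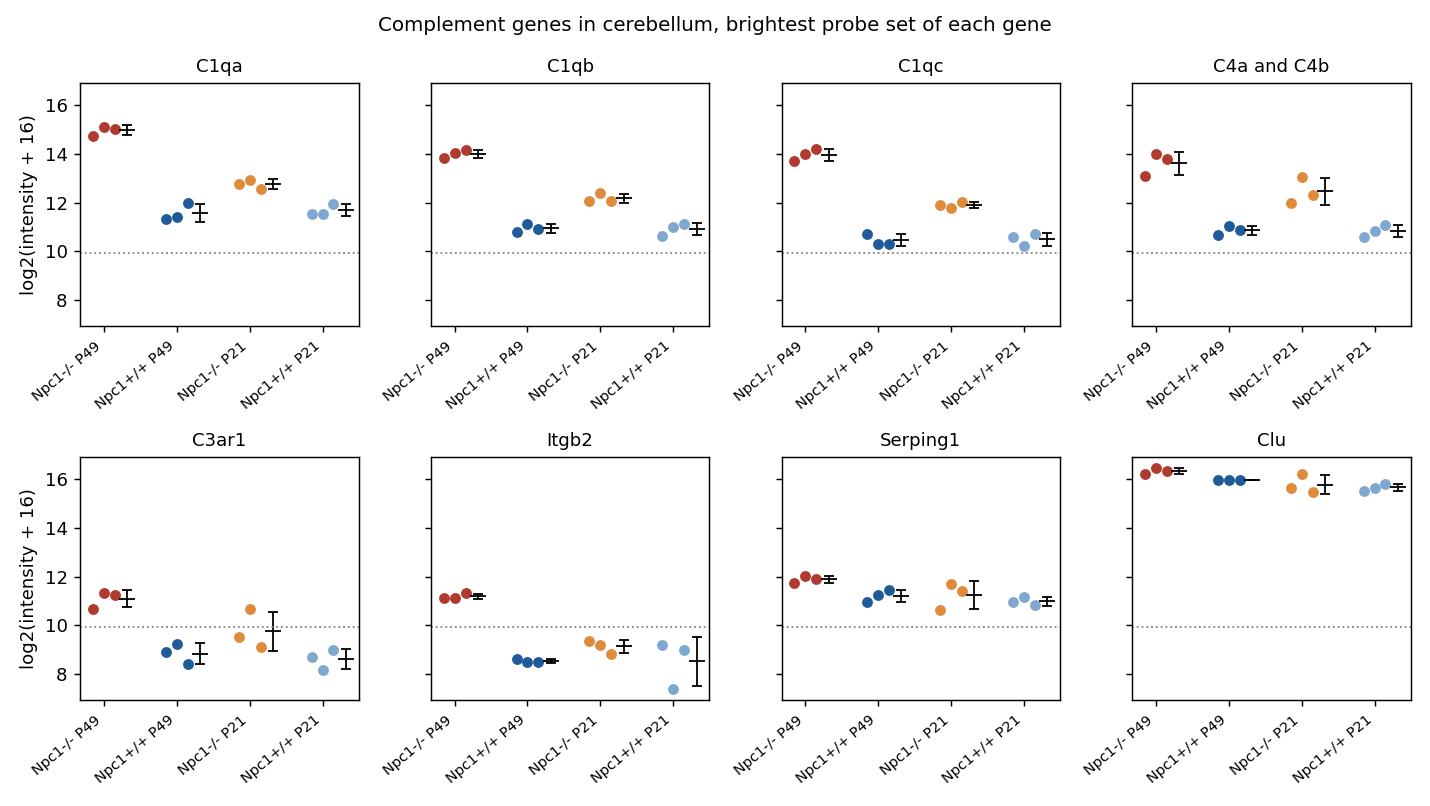
Log2(intensity + 16) of the brightest probe set of each complement gene in the 4 groups of 3 arrays. Dots are arrays, the black bar is the mean with 1 SD and the dotted line is the filter level of 9.93. At P49 every Npc1-/- array lies above every Npc1+/+ array in all 8 panels, with the widest gaps for the C1q genes and narrow ones for Serping1 and Clu.

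At P49, 3 of the 5 tested complement genes rose in Npc1-/- cerebellum, against 1.52% of all 7835 genes. In the fit of all probe sets, 9 of the 14 complement probe sets rose, all 5 of C1q and 4 of the others, against 0.937% of all probe sets. In all 14 the 3 Npc1-/- arrays lay above the 3 Npc1+/+ arrays, which held for 9.11% of all probe sets. At P21, 2 of the 5 genes rose, against 0.0511% of all genes, and 2 of the 14 probe sets, against 0.0265% of all probe sets. At that age 6 of the 14 did not overlap, against 5.83% of all probe sets. The median log2 difference over the 14 probe sets was 2.45 at P49 and 0.77 at P21, where the median of all probe sets was -0.020 and -0.0029. Several probe sets share a gene, so the 14 are not independent.

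**Figure D2:**
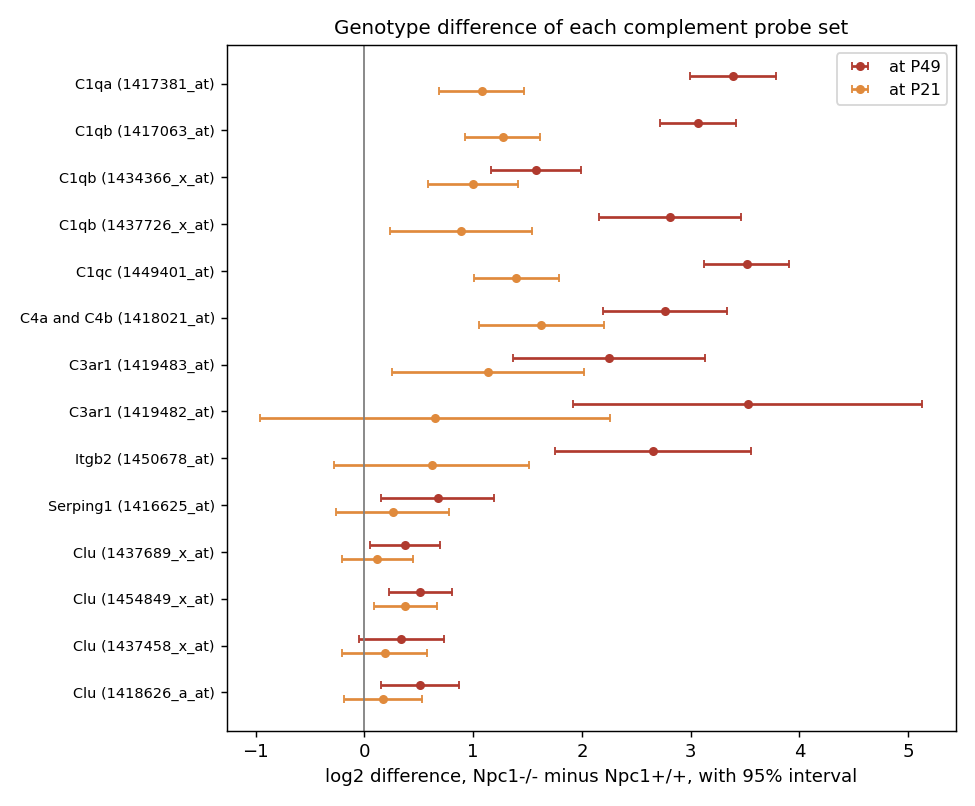
Log2 difference, Npc1-/- minus Npc1+/+, of each of the 14 complement probe sets at P49 (red) and P21 (orange), with 95% intervals from the fit of all probe sets. The C1q genes, C4a and C4b, C3ar1 and Itgb2 reach 1.58 to 3.52 at P49, while Serping1 and the 4 Clu probe sets stay between 0.34 and 0.67.

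The genotype difference was larger at P49 than at P21 for the brightest probe set of each C1q gene. The P49 difference exceeded the P21 difference by 2.31 ± 0.26 for C1qa (SE, limma interaction term, adjusted p = 0.000929), by 1.79 ± 0.23 for C1qb (adjusted p = 0.00166) and by 2.12 ± 0.25 for C1qc (adjusted p = 0.00123). These 3 of 5 genes were called, against 0.345% of all genes, and 3 of the 14 probe sets, against 0.168% of all probe sets. The other C1qb probe sets were not called, at 0.58 ± 0.27 for 1434366_x_at (adjusted p = 0.712) and 1.92 ± 0.43 for 1437726_x_at (adjusted p = 0.124). Among the remaining probe sets the same term was 2.04 ± 0.59 for Itgb2 (adjusted p = 0.327) and 1.14 ± 0.38 for C4a and C4b (adjusted p = 0.445) in the fit of all probe sets, so a difference between the ages in the genotype effect was not shown for them. The Itgb2 term was called without P21 Npc1+/+ replicate 2 (2.61, adjusted p = 0.0309). For Serping1 and Clu it was 0.41 ± 0.33 and 0.25 ± 0.21 (adjusted p = 0.833 for each).

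Within Npc1-/- cerebellum, C1qa was 4.64-fold, C1qb 3.52-fold and C1qc 4.21-fold higher at P49 than at P21 (limma adjusted p = 1.30e-05, 1.79e-05 and 1.59e-05). With Clu, 4 of the 5 tested genes rose with age, against 2.78% of all genes, and in the fit of all probe sets 7 of 14 rose, against 1.21%. The P49 arrays lay above the P21 arrays in 13 of the 14 probe sets, against 8.81% of all probe sets. It also held in Npc1+/+ cerebellum for 3 of the 14, all of Clu, where the share of all probe sets was not counted. In Npc1+/+ cerebellum the same age differences were -0.10 ± 0.18 for C1qa, 0.023 for C1qb and -0.049 for C1qc on the log2 scale. By limma 0 of 5 genes rose there, against 0.166% of all genes, and 0 of 14 probe sets, against 0.0442% of all probe sets. At an unadjusted p under 0.05 there were 0 of the 5 genes, against 9.99% of all genes. By the same measure there were 2 of the 14 probe sets, both of Clu, against 8.14% of all probe sets.

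C4b encodes complement component 4, cleaved after C1q has activated its proteases, and C4a is a near-identical copy next to it in the mouse. Their shared probe set cannot tell them apart. At P49 it read 13.09, 13.98 and 13.80 on the Npc1-/- arrays, against 10.67, 11.03 and 10.87 on the Npc1+/+ arrays. The groups were far apart, and the difference was 2.76 ± 0.27 (SE, 6.80-fold, 95% interval 2.19 to 3.34, limma fit of all probe sets, adjusted p = 5.12e-05). At P21 it read 12.00, 13.05 and 12.32 on the Npc1-/- arrays, against 10.59, 10.82 and 11.08 on the Npc1+/+ arrays. These groups did not overlap, but the difference of 1.63 ± 0.27 was not called (adjusted p = 0.0601). It was called without P21 Npc1-/- replicate 1 (adjusted p = 0.034) and with the replicate number as a block (adjusted p = 0.00915), and was 1.17 without the 3 arrays of doubtful sex label (adjusted p = 0.434). Within Npc1-/- cerebellum the P49 values exceeded the P21 values by 1.16 ± 0.27 (adjusted p = 0.0359), a call lost in 10 of 19 alternatives.

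C3ar1 encodes the receptor for C3a, the small fragment released from C3. Its brighter probe set read 10.68, 11.32 and 11.26 on the Npc1-/- arrays at P49, against 8.90, 9.23 and 8.39 on the Npc1+/+ arrays. All Npc1-/- arrays were above the filter level and all Npc1+/+ arrays below it, so the size is uncertain. The difference was 2.25 ± 0.41 (SE, 95% interval 1.36 to 3.13, limma fit of all probe sets, adjusted p = 0.0114). The call was lost without P49 Npc1-/- replicate 2 (adjusted p = 0.0852) or 3 (0.0772), or without P49 Npc1+/+ replicate 3 (0.0615). The dimmer probe set differed by 3.52 ± 0.75 (adjusted p = 0.0311), a call lost in 6 of 19 alternatives. At P21 the brighter probe set read 9.52, 10.66 and 9.10 on the Npc1-/- arrays, against 8.71, 8.18 and 8.99 on the Npc1+/+ arrays. The groups did not overlap there, but 1.14 ± 0.41 was not called (adjusted p = 0.537).

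Itgb2 encodes the β2 integrin chain, which pairs with Itgam to form complement receptor 3, a receptor for C3 fragments on microglia and leukocytes. At P49 it read 11.14, 11.14 and 11.32 on the Npc1-/- arrays, against 8.64, 8.50 and 8.51 on the Npc1+/+ arrays. Both groups were tight and far apart, with the Npc1+/+ arrays below the filter level. The difference was 2.65 ± 0.42 (SE, 95% interval 1.76 to 3.55, limma fit of all probe sets, adjusted p = 0.00367), and it was called under all 19 alternatives run for it. At P21 it read 9.37, 9.21 and 8.84 on the Npc1-/- arrays, against 9.21, 7.37 and 8.98 on the Npc1+/+ arrays. Here the groups overlapped, and 0.62 ± 0.42 was not called (adjusted p = 0.698). Within Npc1-/- cerebellum the P49 values were 2.06 ± 0.42 higher than the P21 values (adjusted p = 0.0185), a call lost when any 1 of the P49 Npc1-/- replicates was left out (adjusted p = 0.0557 to 0.0891).

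Serping1 encodes the C1 inhibitor, which blocks the proteases bound to C1q. At P49 it read 11.72, 12.01 and 11.92 on the Npc1-/- arrays, against 10.95, 11.24 and 11.45 on the Npc1+/+ arrays. The groups were apart by a narrow margin, and the difference of 0.67 ± 0.24 (SE, 1.59-fold, 95% interval 0.17 to 1.18) was not called (limma adjusted p = 0.226). At P21 it read 10.62, 11.69 and 11.42 on the Npc1-/- arrays, against 10.95, 11.18 and 10.82 on the Npc1+/+ arrays. The groups overlapped, and the difference was 0.26 ± 0.24 (adjusted p = 0.683). The spread of the P21 Npc1-/- arrays, 0.56 (SD), was the widest of its 4 groups.

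Clu encodes clusterin, a secreted chaperone that inhibits assembly of the terminal complex. At P49 its brightest probe set read 16.20, 16.46 and 16.34 on the Npc1-/- arrays, against 15.97, 15.96 and 15.95 on the Npc1+/+ arrays. The groups did not overlap, and the difference of 0.37 ± 0.15 (SE, 1.29-fold) was not called (limma adjusted p = 0.302). Its other 3 probe sets differed by 0.51, 0.34 and 0.51 in the fit of all probe sets, and none was called (adjusted p = 0.0988, 0.637 and 0.237). All Clu probe sets but the dimmest, 1418626_a_at, are of the design that may match other sequences. At P21 the brightest read 15.65, 16.20 and 15.49 on the Npc1-/- arrays, against 15.51, 15.65 and 15.82 on the Npc1+/+ arrays. The groups overlapped, with a difference of 0.12 ± 0.15 (adjusted p = 0.771). Clu rose with age in Npc1-/- cerebellum by 0.56 ± 0.15 (1.47-fold, adjusted p = 0.0388), a call lost in 14 of 23 alternatives, and the corresponding difference in Npc1+/+ cerebellum was 0.30 ± 0.15 (adjusted p = 0.526).

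At P49 both regulators were called when only the 6 arrays of that age were fitted (limma adjusted p = 0.00835 for Clu and 0.0283 for Serping1) and without the 3 arrays of doubtful sex label (0.0298 and 0.0297). Clu was also called without P21 Npc1-/- replicate 2 (adjusted p = 0.0266) and Serping1 without P21 Npc1-/- replicate 1 (adjusted p = 0.0487). At P21 the Clu difference was -0.014 and the Serping1 difference -0.26 without the 3 arrays. P21 Npc1-/- replicate 2 was the highest of its group in 12 of the 14 probe sets. P49 Npc1-/- replicate 1, labelled male although its Xist read 15.63, was the lowest of its group in 13 of 14. These counts were not made over all probe sets, and several of the 14 share a gene.

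The remaining pathway was read from lists of 51 genes, of which 39 had a probe set and 12 were tested. At P49 0 of the 12 rose by limma, against 1.52% of all genes, and 1 fell, against 1.14%. An unadjusted p under 0.05 was held by 1 of the 12, against 887 of all 7835 genes, and the median difference was -0.021. The gene that fell was Susd4, a membrane protein reported to inhibit complement, at -0.44 ± 0.11 (SE, adjusted p = 0.0497), a call lost in 15 of 23 alternatives (adjusted p 0.0161 to 0.257). Masp1, a protease of the lectin pathway, differed by -0.30 ± 0.15, and Cfp, which encodes properdin of the alternative pathway, by -0.28 ± 0.94. Among the receptors Lrp1, which binds C1q and many other ligands, differed by 0.22 ± 0.13, and Cr1l, the rodent regulator Crry, by -0.069 ± 0.16. None of these was called.

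Cd93, once described as a C1q receptor and expressed on endothelium, was the 1 gene of the 12 that changed with age in Npc1-/- cerebellum. It fell by 1.32 ± 0.23 at P49 relative to P21 (SE, limma adjusted p = 0.00505), against 3.45% of all genes lower. That call held under all 22 alternatives run for it (adjusted p 0.0044 to 0.0495). In Npc1+/+ cerebellum the corresponding difference was -0.59 ± 0.23 (adjusted p = 0.378), and the age differences of the genotypes were not shown to differ (interaction -0.73 ± 0.33, adjusted p = 0.582). The genotype difference of Cd93 was 0.21 ± 0.23 at P49 and 0.93 ± 0.23 at P21 (adjusted p = 0.845 and 0.263).

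Several cerebellar genes carry a C1q-like domain without being part of complement. Cbln1, which organises the synapses between granule and Purkinje cells, differed by 0.097 ± 0.087 at P49 (SE, limma adjusted p = 0.805). Cbln3 differed by -0.013 ± 0.14 and C1ql1, made by climbing fibre neurons, by 0.12 ± 0.35. Of the 6 tested genes in this list 0 were called in any of the 5 comparisons by limma, where 5 to 488 of all 7835 genes were. In each comparison 0 or 1 of the 6 had an unadjusted p under 0.05, against 661 to 1635 of all genes. The list median at P49 was -0.078.

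Across the 12 arrays the 3 C1q genes had similar profiles. After each gene was centred on its own mean, the root mean square distance from the mean C1q profile was 0.15 for C1qa, 0.16 for C1qb and 0.19 for C1qc on the log2 scale. Each C1q gene is part of that mean, which shortens its distance, so these values are not comparable with those of other genes. Among the other 7830 tested genes the nearest was Tyrobp, an adaptor of microglial receptors, at 0.28. It was followed by Clec7a, the β-glucan receptor of myeloid cells, at 0.30 and Gfap, the astrocyte intermediate filament, at 0.33. Cyba, a subunit of the phagocyte oxidase, followed at 0.42, and Cd68, a lysosomal protein of macrophages, at 0.45. The genes nearest to Serping1 were Slc29a1 (0.12), Slc6a20a (0.14) and Pdpn (0.16), and those nearest to Clu were Dhrs3, Plce1 and Nfe2l2 (each 0.12). Likeness here is over arrays that share the same 4 groups.

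**Figure D3:**
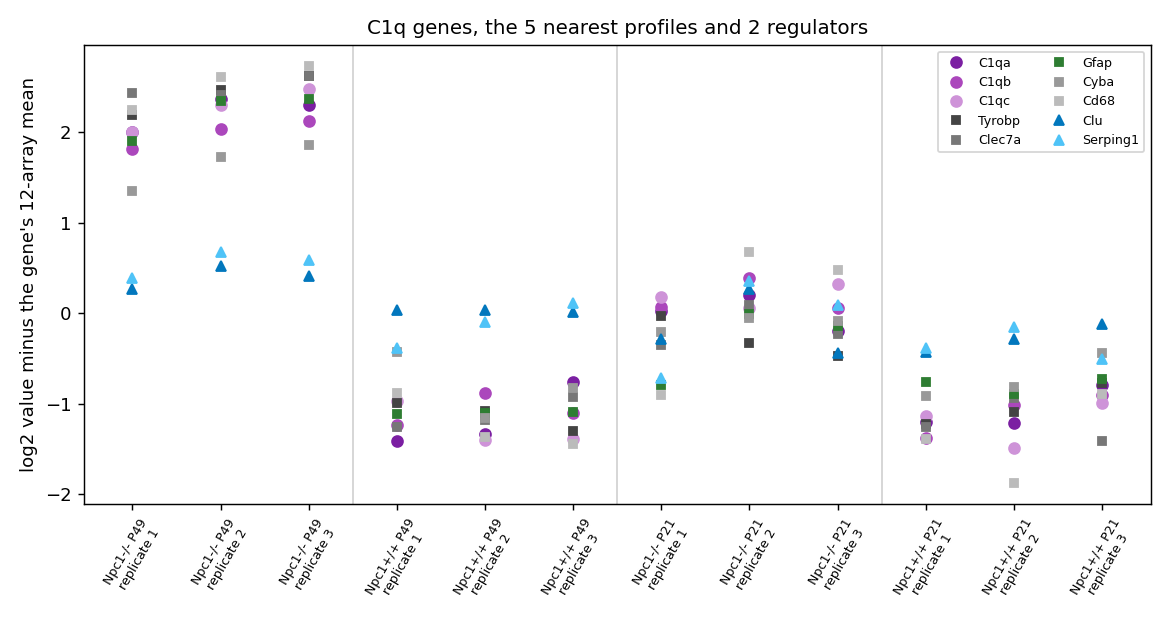
Log2 value minus the gene's own mean over 12 arrays (vertical axis) for each array (horizontal axis, ordered by group), for the C1q genes (circles), their 5 nearest genes (squares), and Clu and Serping1 (triangles). The C1q genes and their neighbours are highest on the 3 P49 Npc1-/- arrays, where Clu and Serping1 are raised far less.

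Markers of microglia moved with the C1q genes. At P49, 7 of 10 tested markers rose in Npc1-/- cerebellum, against 1.52% of all genes, with a median difference of 1.60. The 2 with the smallest p were Tyrobp at 3.55 ± 0.17 (SE, limma adjusted p = 5.82e-08) and Ctss, a lysosomal protease, at 2.19 ± 0.18 (adjusted p = 5.81e-06). Csf1r, the receptor that microglia need for survival, was 1.35 ± 0.16 higher (adjusted p = 0.000256). Cx3cr1, Olfml3, Laptm5 and Ly86 rose by 1.71 ± 0.31, 1.61 ± 0.30, 1.58 ± 0.22 and 1.81 ± 0.27 (adjusted p = 0.00606, 0.00806, 0.000751 and 0.0014). P2ry12, Tmem119 and Selplg differed by 0.56 ± 0.17, -0.22 ± 0.22 and -0.34 ± 0.23 and were not called (adjusted p = 0.14, 0.815 and 0.71). The summed intensity of the 18 microglial genes with a probe set was 99775 to 123292 on the Npc1-/- arrays at P49, against 29969 to 32151 on the Npc1+/+ arrays. At P21 it was 43716 to 49316 on the Npc1-/- arrays, against 30238 to 37934 on the Npc1+/+ arrays. By limma 0 of 10 markers were called there, where 0.0511% of all genes were called higher and 0.0128% lower. At an unadjusted p under 0.05 there were 3 of the 10, against 790 of all 7835 genes. The part of cell number in the C1q difference was not tested.

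Markers of other cells that can make complement genes were read the same way. The 8 perivascular macrophage genes, none of them above the filter or tested, summed to 5712 to 7089 in Npc1-/- cerebellum at P49, against 3092 to 4585 in Npc1+/+ cerebellum. The 10 blood leukocyte genes, also all under the filter, summed to 2535 to 3503 in Npc1-/- cerebellum, against 1468 to 2974 in Npc1+/+ cerebellum, and these ranges overlapped. Of 16 astrocyte and Bergmann glia markers, 2 rose at P49, against 1.52% of all genes. They were Gfap (3.30 ± 0.17, SE, limma adjusted p = 5.82e-08) and Aqp4 (0.94 ± 0.13, adjusted p = 0.000663). The other markers of this list were not called. The list median was 0.16, against -0.019 over all genes, and 13 of the 16 differences were positive. The list summed to 685171 to 769424 in Npc1-/- cerebellum, against 562753 to 597843 in Npc1+/+ cerebellum, a sum in which the brightest genes weigh most. Of the markers that define the tissue, 6 of 8 for Purkinje cells fell at P49 by limma, against 1.14% of all genes. For granule neurons 0 of 6 were called, for oligodendrocytes 0 of 8 and for endothelium 0 of 9. Over all genes 1.52% were called higher and 1.14% lower. At an unadjusted p under 0.05 the counts for these 3 lists were 0, 2 and 2, against 887 of all 7835 genes.

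Beside Clu and Serping1, the 12 meningeal genes summed to 68302 to 73762 in Npc1-/- cerebellum at P49, against 36861 to 48226 in Npc1+/+ cerebellum. Of the 12, 2 rose, against 1.52% of all genes. They were Igfbp2 (1.65 ± 0.30, SE, limma adjusted p = 0.0073) and Fmod (1.40 ± 0.30, adjusted p = 0.0183), and the call of Fmod was lost in 5 of 23 alternatives. The 7 choroid plexus genes summed to 80255 to 218525 in Npc1-/- cerebellum at P49, against 9564 to 36965 in Npc1+/+ cerebellum. Of the 3 tested, 0 were called by limma at P49. An unadjusted p under 0.05 was held by 2 of the 3, against 887 of all 7835 genes. At P21 the same sum spanned 8352 to 185293 in Npc1-/- cerebellum and 8112 to 194651 in Npc1+/+ cerebellum, a wide spread among animals of 1 group. The part of meninges and choroid plexus in the regulator values was not tested.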

How the data were processed

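The authors deposited 1 linear intensity per probe set and array for 22690 probe sets, and 64 of these are controls. How probes were summarised and scaled is not given in the sources used here. The trimmed mean was 5002 on every array. Per the labels' protocols, RNA was extracted from frozen cerebellum and labelled with biotin. One protocol text gives P21 for all animals, and the time point labels were used instead. Detection calls were not used, so detection of dim genes was not judged, and the number of arrays limits the precision.

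From the deposited intensity, log2(value + 16) was quantile normalized. Genes were named through the platform annotation, updated with a RefSeq table. There were 20380 probe sets with 1 symbol, 691 with several and 1555 not listed. The brightest probe set with 1 symbol stood for each gene, and genes under the 40th percentile were left out. limma 3.58.1 in R 4.3.3 fitted 4 group means with a variance trend, with two-sided tests adjusted over all genes. A second fit held all 22626 probe sets without a filter. The test was tried on simulated data. Alternatives changed the scaling, pseudocount (1 or 64), filter, probe set rule, variance trend, arrays fitted and replicate block, and left out each array in turn. The comparisons share groups, so they are not independent.

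The members and lists were chosen with earlier results of these data known. Named genes were all members, pathway genes called in any comparison, and the nearest profiles. Named markers were the 2 with the smallest p at P49 in the microglia, astrocyte and meninges lists. For the other cell type lists in the text, counts or sums are given. The remaining microglial markers and the further pathway genes given were named after their values were seen. Cell type markers are textbook genes.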

Additional observations from a re-analysis of the deposited data

Results flagged for a closer look

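The genotype difference of the 3 C1q genes, on the brightest probe set of each, was not the same at the 2 ages, by the test of the difference itself. The Npc1-/- minus Npc1+/+ difference was larger at P49 than at P21 by 2.31 on the log2 scale for C1qa, 1.79 for C1qb and 2.12 for C1qc (limma interaction term, adjusted p = 0.000929, 0.00166 and 0.00123). In all 3 genes each of the 3 P49 Npc1-/- arrays was above each of the other 9 arrays. The share of all genes in that order was not counted. Of all probe sets, 9.11% had the P49 Npc1-/- arrays above the P49 Npc1+/+ arrays. The P49 Npc1-/- arrays were above the P21 Npc1-/- arrays in 8.81%. The other C1qb probe sets gave 0.58 and 1.92 (adjusted p = 0.712 and 0.124, fit of all probe sets) and were not called. The calls of the 3 genes held under all 22 alternatives run for them. One of these, without the 3 P21 arrays of doubtful sex label, leaves 1 P21 Npc1-/- array, so the spread came from the other groups only (2.35, 1.85 and 2.27).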

How the results depend on the processing

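The calls of the 3 C1q genes at P49, for the interaction and with age in Npc1-/- cerebellum, and those of C4a and C4b and of Itgb2 at P49, held under every alternative run. The number of complement genes called at P49 was 3 of 5 tested. It was 5 of 7 tested with no filter, with a 20th percentile filter and in the fit of every probe set. C3ar1 and Itgb2 were added there. With only the arrays compared the number was 5 of 5, where Clu and Serping1 were added instead. Calls over all genes also moved, from 100 to 400 at P49 and from 1 to 27 at P21 across the alternatives. Without the 3 arrays of doubtful sex label the P49 differences of Clu and Serping1 were 0.37 and 0.67. The number of complement genes called also varied at P21. At P21 it was 2, and it was 1 with the mean of a gene's probe sets, 0 with only the arrays of the groups compared and 0 without the 3 arrays. Leaving out 1 array gave 3 to 4 at P49, 2 to 3 at P21, 3 for the interaction, 3 to 5 with age in Npc1-/- and 0 with age in Npc1+/+ cerebellum.

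Differences that were not called changed sign in some settings. Without the 3 arrays the P21 difference was -0.014 for Clu, -0.26 for Serping1, -0.60 for the dimmer C3ar1 probe set, and -0.11 and -0.062 for the Clu probe sets 1437458_x_at and 1418626_a_at, and the age difference in Npc1+/+ was -0.010 for C3ar1 and -0.55 for Itgb2. With 1 array left out, the P21 difference spanned -0.088 to 0.26 for Clu, -0.041 to 0.34 and -0.043 to 0.32 for the same further Clu probe sets, and -0.075 to 1.46 for the dimmer C3ar1 probe set. The age difference in Npc1+/+ then lay between -0.30 and 0.040 for C1qa, between -0.12 and 0.12 for C1qb, between -0.19 and 0.059 for C1qc and between -0.093 and 0.15 for C4a and C4b. It spanned -0.0088 to 0.44 for C3ar1 and -0.55 to 0.37 for Itgb2, and Itgb2 was -0.0021 with a pseudocount of 64. The cause was not tested.

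Over all genes, calls ranged over the alternatives from 100 to 400 at P49 (208 in the fit reported), 1 to 27 at P21 (5), 18 to 66 for the interaction (43), 126 to 639 with age in Npc1-/- (488) and 14 to 126 with age in Npc1+/+ cerebellum (55). At P21 80% of calls were higher after normalization and 62.5% on the values as deposited. Replicate numbers name individual animals, and the labels name no batch. Of 12 pairs of same-numbered arrays, 5 had deviations correlated above 0.1 (-0.18 to 0.19). Differently numbered arrays were not compared, so these values cannot show whether the numbers pair animals. With the replicate block the complement genes called numbered 3 at P49 and 2 at P21. All genes called then came to 189 at P49 and 5 at P21. Dim signal limits the size of the C3ar1 and Itgb2 differences.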
